A study of Fragaria vesca with 9 samples.

Results

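The genes described here are 150 of the 34006 in the deposited tables, and they are the genes with the widest drop in axillary buds of RdV, an ecotype of woodland strawberry (*Fragaria vesca*), among genes whose level was alike in FT3OE and H4. The libraries were RNA from undifferentiated axillary buds at the fourth node of plants with 4 leaves, grown untreated under 16 h days. RdV had 3 libraries and is labelled as its own ecotype and genotype. FT3OE had 3 libraries and is labelled as Hawaii-4 in ecotype and genotype, with FT3 in the sample titles; the series' text names these buds FT3OE, taken to stand for overexpression of FT3, and the labels give no promoter and no number of transgenic lines. H4, the Hawaii-4 accession, had 3 libraries and is the background of FT3OE. The titles carry the code UB4 in RdV and FT3OE and US4 in H4, and the labels define neither. H4 therefore differs from both other genotypes in this code. The labels do not say that replicates came from separate plants, so the spread between libraries may be technical.

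An axillary bud sits where a leaf joins the stem. In strawberry it can stay dormant, grow into a runner that makes daughter plants, or grow into a branch crown, a short leafy shoot that can end in flowers. FT3 belongs to the family of FLOWERING LOCUS T, the mobile signal that moves buds towards flowering in many plants. A natural ecotype differs from Hawaii-4 at many places in the genome, whereas FT3OE is labelled as Hawaii-4.

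The members were chosen from their values. CPM, counts per 1000000, is the expected count of a gene over the summed counts of its library, and levels were compared as log2(CPM + 0.5). A gene had to have at least 10 counts summed over each genotype, a mean of at least 1 CPM over the 9 libraries, FT3OE and H4 means within 0.3 on the log2 scale, and all 3 RdV libraries below all 6 others. Of 16886 genes past the count and level minimum, 11268 had FT3OE and H4 within 0.3 and 1574 of these also had RdV below the rest. The rule leaves out a stretch of linkage group 4 that held none of the 1574; without it, 16865 genes passed the count and level minimum, and these are the background below. The 150 with the widest distance between RdV and the nearer of FT3OE and H4 are the members. That distance ran from 0.763 to 6.53 with a median of 1.08. The drop in RdV and the likeness of FT3OE and H4 are therefore given below as descriptions, with no test. In the edgeR quasi-likelihood fit of all 9 libraries, 150 of 150 members were called lower in RdV than in H4 and 150 of 150 lower in RdV than in FT3OE at a Benjamini-Hochberg adjusted p under 0.05. Among all 18587 genes tested, 23.6% were called lower in RdV than in H4 and 11.1% lower in RdV than in FT3OE. Since the rule used both contrasts, nothing is read from the members' counts.

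The files hold identifiers without gene names, and 0 of the 150 members matched the RefSeq gene table for *Fragaria vesca*, so the members are given by identifier and their functions are not described. Total counts ran from 23110936 to 44916866 per library. Across genes, which are no independent replicates, the correlation of log2(CPM + 1) was 0.9939 to 0.9985 between libraries of a genotype and 0.9818 to 0.9936 between genotypes. FT3 itself could not be looked up by name. The gene with the largest fitted rise in FT3OE over H4, FvH4_3g09870, had 7584, 11460 and 13889 counts in the FT3OE libraries and 3, 1 and 0 in H4.

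Taken over the 150 members, the median level was 4.49, 4.31 and 3.77 CPM in the 3 RdV libraries, against 14.6, 15.5 and 15.5 CPM in FT3OE and 14.8, 13.8 and 14.1 CPM in H4. The RdV libraries lay close together in this median and apart from the rest, as the rule requires of each gene. In summed level the members made up 1969, 2159 and 2003 CPM in RdV, 5073, 5242 and 5222 CPM in FT3OE and 5375, 5177 and 5369 CPM in H4. The median fitted log2 change of the members was −1.36 in RdV against H4 and −1.28 in RdV against FT3OE, with medians over all tested genes of −0.004 and −0.008. These are bulk buds, in which fewer cells that use a gene and less RNA per cell cannot be told apart. Nor can either be told apart here from less complete counting of RdV reads on the Hawaii-4 gene models, which was not tested.

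Most members kept a clear part of their level in RdV. The RdV mean was 25% to 50% of the mean of the 6 other libraries in 87 members and 50% or more in 26, with 57.4% as the highest. It was 10% to 25% in 23 members and under 10% in 14. The set thus runs from genes near 0 in RdV to genes that kept more than 50% of their level elsewhere. The rule asks for at least 10 counts in RdV, and a further 20 genes would have met all its other conditions had their RdV counts reached 10. In 11 of those 20 every RdV library had 0 counts.

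**Figure D1:**
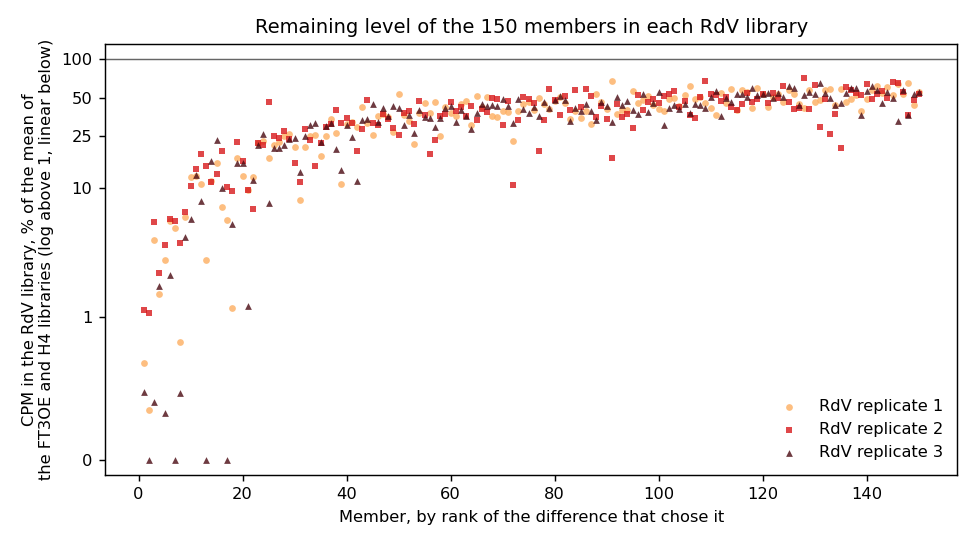
CPM of each of the 150 members in each RdV library, as a percentage of the mean of the 6 FT3OE and H4 libraries (line at 100%), against the member's rank; the vertical axis is logarithmic above 1% and linear below. The 14 members under 10% in the RdV mean lie at the left, and RdV replicate 3 has the lowest point in 12 of them.

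FvH4_3g42880 had the widest distance. It had 1.06, 1.78 and 0.746 CPM in RdV, against 158, 164 and 158 CPM in FT3OE and 150.3, 147 and 157 CPM in H4. The RdV level was 0.766% of that in the other libraries, and it rested on 32.2, 48 and 20 expected counts. The nearest gene before it in identifier order with at least 5 counts in a library was FvH4_3g42840. FvH4_3g42840 is no member because it had 0, 1 and 0 counts in RdV. It had 2124, 3688 and 3457 counts in FT3OE and 2353, 1691 and 2244 in H4. A pair of genes next to each other among those read was thus near 0 in RdV.

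FvH4_7g32271 ranked second. It had 0.233, 0.721 and 0 CPM in RdV, 66.4, 63.2 and 70.2 CPM in FT3OE, and 71.1, 65.1 and 65.0 CPM in H4. Its RdV level came from 7.11, 19.5 and 0 expected counts, and RdV replicate 3 had none. The nearest genes on either side with at least 5 counts in a library were FvH4_7g32261 and FvH4_7g32290. They differed by 0.79 and 0.38 on the log2 scale in RdV against H4, in the opposite direction. FvH4_7g32271 and FvH4_7g32261 are no independent readings. Their expected counts were not whole numbers, and the fractions complete each other in every library, as in 7.11 and 132.89 in RdV replicate 1. The levels of both thus depend on how reads were divided between them, which was not tested.

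FvH4_7g25090 was the member with the most unequal RdV libraries. It had 9.34, 12.9 and 0.97 CPM in RdV, against 233, 228 and 227 CPM in FT3OE and 251, 243 and 238 CPM in H4. The 6 libraries of the Hawaii-4 background stayed within 251 and 227 CPM, whereas RdV replicates 1 and 2 stood far above RdV replicate 3. The gene next to it, FvH4_7g25100, was also a member, at 47.5% of the level in the other libraries, with 1441, 1300 and 1302 counts in RdV. That neighbour was even across the RdV libraries where FvH4_7g25090 was not.

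FvH4_4g30901 was near 0 and even in RdV, at 0.334, 0.486 and 0.386 CPM. It had 22.2, 25.8 and 22.8 CPM in FT3OE and 19.8, 19.3 and 22.4 CPM in H4. The adjacent FvH4_4g30902 had a log2 difference of −3.65 in RdV against H4 as well, and it is no member because FT3OE and H4 differed by 0.31, just past the bound of 0.3. Both genes had expected counts that were not whole numbers, so reads were divided among features there.

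FvH4_4g13640 had 0.623, 0.814 and 0.0746 CPM in RdV, 23.0, 24.3 and 24.3 CPM in FT3OE, and 20.4, 20.9 and 22.2 CPM in H4. As in FvH4_7g25090, RdV replicate 3 was the lowest, with 2 counts beside 19 and 22 in RdV replicates 1 and 2.

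**Figure D2:**
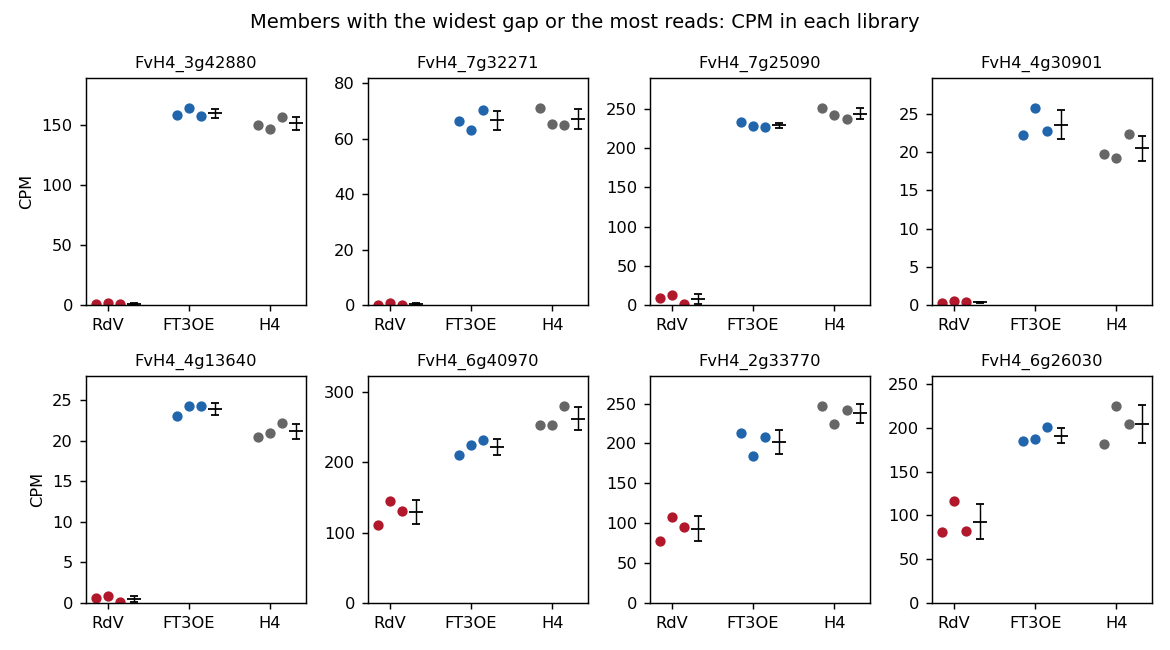
CPM (vertical axes, each starting at 0) in the 3 RdV, 3 FT3OE and 3 H4 libraries for the 5 members with the widest distance and the members with the most CPM in FT3OE and H4; points are libraries and black bars are the mean and SD. In every panel the RdV points lie below all others, at 0.476% to 3.28% of the other libraries in the first 5 panels and at 42.4% to 53.3% in the last 3.

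Members with many reads stood at both ends of this range. The median level over FT3OE and H4 was 22.3 CPM in the members under 10%, 8.95 CPM in those at 10% to 25%, 8.53 CPM in those at 25% to 50% and 35.5 CPM in those at 50% or more. Of the 4 members with the most CPM, FvH4_7g25090 kept 3.28% of its level and the other 3 kept 42.4% to 53.3%. FvH4_6g40970 averaged 129 ± 17.1 CPM in RdV, 222 ± 11.4 CPM in FT3OE and 262 ± 16.0 CPM in H4 (SD, n = 3 each). FvH4_2g33770 had 77.1, 108 and 94.8 CPM in RdV, against 213, 184 and 208 CPM in FT3OE and 247, 224 and 242 CPM in H4. FvH4_6g26030 had 80.9, 116 and 82.4 CPM in RdV, 186, 188 and 201 CPM in FT3OE and 182, 226 and 205 CPM in H4. In each of these 3 members RdV replicate 2 was the highest RdV library and still lay below the lowest of the 6 others. CPM do not allow for gene length. On the TPM scale, which does, FvH4_6g26030 averaged 173 TPM in RdV, 353 TPM in FT3OE and 368 TPM in H4, and its mean over FT3OE and H4 of 361 TPM was the highest level of any member. The median over members of that mean was 13.1 TPM, against 21.3 TPM for all genes past the count and level minimum.

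A pair of further members with many reads was picked out after their values were seen. FvH4_7g20750 had 27.8, 37.4 and 25.5 CPM in RdV, 142, 150.0 and 153 CPM in FT3OE, and 191, 173 and 175 CPM in H4. FvH4_4g27330 had 35.5, 42.1 and 33.8 CPM in RdV, 139.5, 144 and 164 CPM in FT3OE, and 205, 155 and 193 CPM in H4. They stood at 18.4% and 22.3% of the other libraries in CPM, and their RdV libraries held 682 to 1138 counts of each. For FvH4_7g20750 this depended on the scale. It had 138, 176 and 154.5 TPM in RdV, against 153, 153 and 165 TPM in FT3OE and 215, 196 and 214 TPM in H4. RdV thus overlapped FT3OE and lay below H4. The mean ratio of CPM to TPM for this gene was 0.193 in RdV, 0.943 in FT3OE and 0.865 in H4. The effective length behind its TPM was thus shorter in RdV, and the reason was not tested. FvH4_7g20750 was the 1 member whose RdV libraries overlapped the others in TPM, and in the other 149 all 3 RdV libraries lay below all 6. The rule required this in CPM and TPM rescale the same counts, so nothing is read from the 149. FvH4_4g27330 averaged 71.2 TPM in RdV, 282 TPM in FT3OE and 341 TPM in H4.

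At the edge of the set the distance between RdV and the nearer genotype was 0.765 and 0.763 on the log2(CPM + 0.5) scale. FvH4_2g39430, ranked 149, had 1.80, 2.00 and 2.20 CPM in RdV, 3.40, 4.27 and 3.61 CPM in FT3OE and 5.62, 4.33 and 3.70 CPM in H4. FvH4_5g17110, ranked 150, had 73.6, 71.2 and 74.0 CPM in RdV, 142, 141 and 146 CPM in FT3OE and 123, 119.5 and 130.4 CPM in H4. The first genes outside, FvH4_6g38460 and FvH4_4g26190, had distances of 0.762 and 0.759, so the boundary separates genes that are nearly alike in this measure.

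The choice was repeated without 1 library of each genotype, and the libraries so left out were then read. This gives the same measure for the genes so picked, which are not all members, in libraries that did not pick them. The unused libraries are replicates of the same genotypes and may not come from separate plants. The values are thus a description and no independent test. With replicate 3 left out, RdV was the lowest of the 3 unused libraries in 148 of the 150 genes picked, against 32.4% of the other genes past the minimum. With replicate 1 left out it was the lowest in 142 of 150, against 33.2% of the others. With replicate 2 left out it was the lowest in 114 of 150, against 33.5% of the others. A drop of at least 2-fold below both unused FT3OE and H4 libraries was seen in 71, 61 and 77 of 150 genes for replicates 1, 2 and 3, against 0.925%, 0.557% and 0.634% of the other genes. The median log2 difference of the picked genes in the unused libraries was −1.16, −0.96 and −1.16 in RdV against H4 and −1.08, −1.06 and −1.11 in RdV against FT3OE. The 3 picks held 118, 98 and 123 of the members. Genes chosen on the other libraries were thus least often low in RdV when the libraries numbered 2 were the unused ones.

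**Figure D3:**
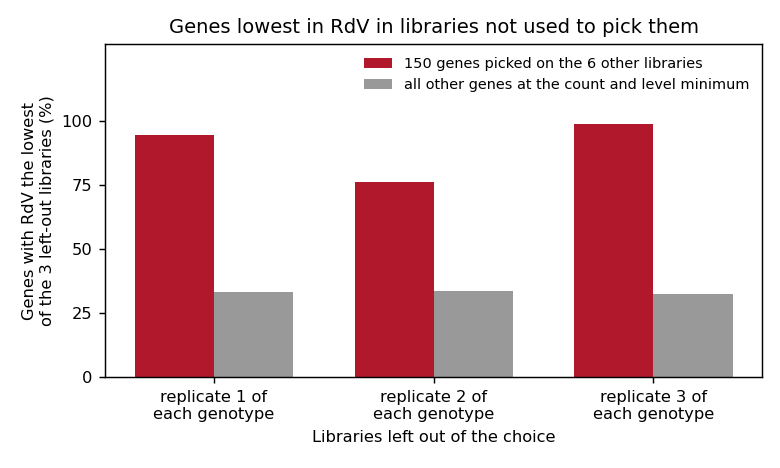
Share of genes (vertical axis, %) in which RdV was the lowest of the 3 libraries left out of the choice, for replicates 1, 2 and 3 of each genotype; red bars are the 150 genes picked on the 6 libraries kept, and grey bars are all other genes past the count and level minimum. The red bars stand at 94.7%, 76% and 98.7%, and the grey ones at 32.4% to 33.5%.

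Within RdV the members varied more than in the other genotypes. The median range over 3 libraries on the log2 scale was 0.37 in RdV, 0.21 in FT3OE and 0.25 in H4. Over all genes past the count and level minimum the same medians were 0.24, 0.16 and 0.17, so RdV was the more variable genotype there too. The rule also picked members for low levels in RdV, and few counts can widen a log2 range. The part of this in the members' wider range was not tested. The range exceeded 1 in 8 members. After FvH4_7g25090 the widest was FvH4_1g27660, with 1.71, 4.69 and 0.78 CPM in RdV, 11.9, 10.8 and 10.04 CPM in FT3OE, and 9.98, 9.66 and 8.52 CPM in H4. RdV replicate 2 was the highest RdV library in 67 members, replicate 1 in 41 and replicate 3 in 42.

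The members lowest in RdV had another order. Among the 14 members under 10%, RdV replicate 3 was the lowest library in 12 and RdV replicate 1 in 2. Their median remaining level was 3.36% in RdV replicate 1, 5.64% in replicate 2 and 0.474% in replicate 3. In the 23 members between 10% and 25% the medians were 17.6%, 19.2% and 20.3%, with no such step. RdV replicate 3 was under 50% of both other RdV libraries in 9 members, 8 of them under 10%, compared with 2 members for replicate 2 and 1 for replicate 1. Over all genes past the minimum the shares were 0.308% for replicate 3, 0.196% for replicate 2 and 0.083% for replicate 1. The 20 genes left out for having under 10 RdV counts cannot be set beside this, since that limit keeps them near 0 in each RdV library. Their summed level was 0.136%, 0.194% and 0.15% of the other libraries in RdV replicates 1, 2 and 3. A member with few RdV counts had to reach 10 over RdV, as FvH4_7g13730 did with 5, 8 and 0. Whether the count minimum shaped which deep drops became members was not tested. These comparisons of RdV libraries were chosen after the values were seen, and several of the members rest on under 30 counts per RdV library.

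By identifier, 4 members lay within a few genes of each other on linkage group 7. FvH4_7g13760 had 0.852, 0.962 and 0 CPM in RdV, 17.1, 20.0 and 19.4 CPM in FT3OE, and 14.9, 16.7 and 15.9 CPM in H4. FvH4_7g13770 had 2, 8 and 1 counts in RdV, 217, 345 and 346 in FT3OE and 232, 199 and 231 in H4. FvH4_7g13730 had 5, 8 and 0 counts in RdV, 65, 144 and 155 in FT3OE and 88, 73 and 66 in H4. In these 3 members RdV replicate 3 had 0 or 1 counts. FvH4_7g13680 had 9, 8 and 1 counts in RdV, against 101, 156 and 127 in FT3OE and 91, 63 and 78 in H4. The 4 members were at 1.67% to 6.78% of the level in the other libraries, with no overlap between RdV and the rest, as the rule requires.

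The same stretch held further genes of this kind that the rule passes over for few counts. FvH4_7g13750 had 0, 0 and 0 counts in RdV, 12, 15 and 18 in FT3OE and 11, 8 and 13 in H4. FvH4_7g13780 had 8, 1 and 0 counts in RdV, 80, 101 and 117 in FT3OE and 86, 75 and 98 in H4. FvH4_7g13690 stands inside the stretch and had 466, 353 and 406 counts in RdV, 455, 730 and 781 in FT3OE and 408, 332 and 456 in H4, a log2 difference of 0.01 in RdV against H4. Of the 7 genes with at least 5 counts in a library from FvH4_7g13680 to FvH4_7g13780, it alone was not low in RdV. On either side the next genes, FvH4_7g13660 and FvH4_7g13810, differed by −0.06 and −0.05. The low stretch, broken by FvH4_7g13690, therefore ended at both sides within 1 gene that is read in these buds. Low genes did not end there, since a further member, FvH4_7g13870, lay past FvH4_7g13840. FvH4_7g13870 had 21, 12 and 7 counts in RdV, 61, 125 and 111 in FT3OE and 69, 49 and 56 in H4. Its RdV level was 20.1% of that in the other libraries. It had no other member within 5 identifiers and is thus not counted in the run. The genes beside the run were looked at after the run was known.

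**Figure D4:**
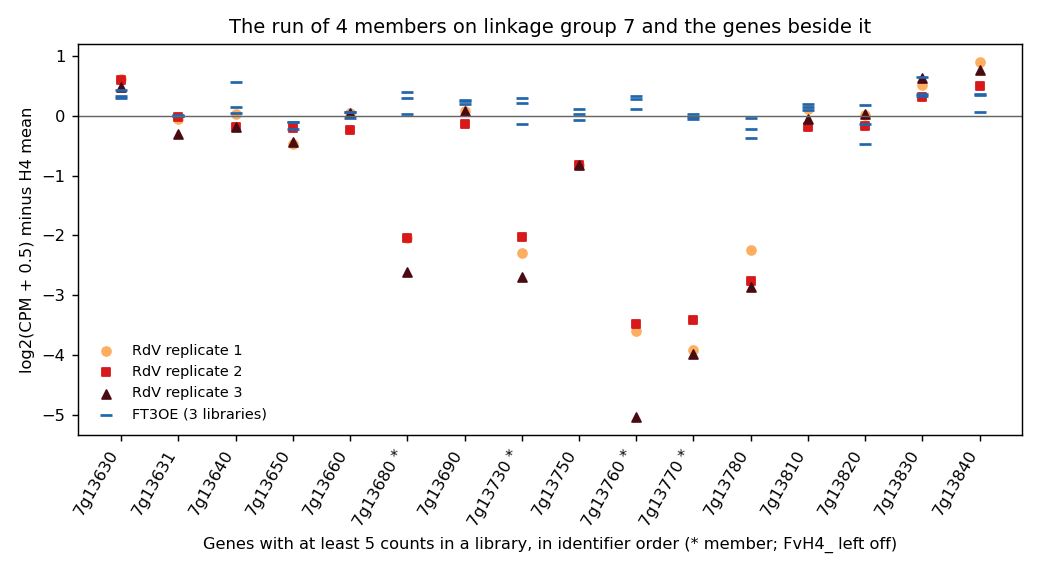
Log2(CPM + 0.5) minus the H4 mean (vertical axis) for genes in identifier order along linkage group 7 around FvH4_7g13680 to FvH4_7g13770; orange circles, red squares and dark triangles are the RdV libraries, blue dashes the FT3OE libraries, and stars mark members. The members and FvH4_7g13780 lie at −2 or lower in RdV, with FvH4_7g13690 among them near 0.

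Over the whole genome, linkage group 7 held a larger share of the members than of the genes. It carried 35 of the 150 members (23.3%), against 12.1% of the genes past the count and level minimum. The other linkage groups held 8% to 16% of the members, with linkage group 5 the lowest at 12 members (8%) against 14.1% of genes. Among all 1574 genes that met the conditions of the rule, 12.8% lay on linkage group 7, so the larger share was among the widest drops. The 150 genes raised only in RdV, picked by the same rule turned round, had 16.7% on linkage group 7 and 19.3% on linkage group 5. The 150 genes lowered only in FT3OE had 15.3% on linkage group 7. No test was made of these shares, and neighbouring genes are not independent. Contigs outside the linkage groups carried 2 members, FvH4_c4g00010 and FvH4_c4g00040, of 6 contig genes past the minimum. The linkage group is read from the digit before the g in the identifier; no annotation was used.

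**Figure D5:**
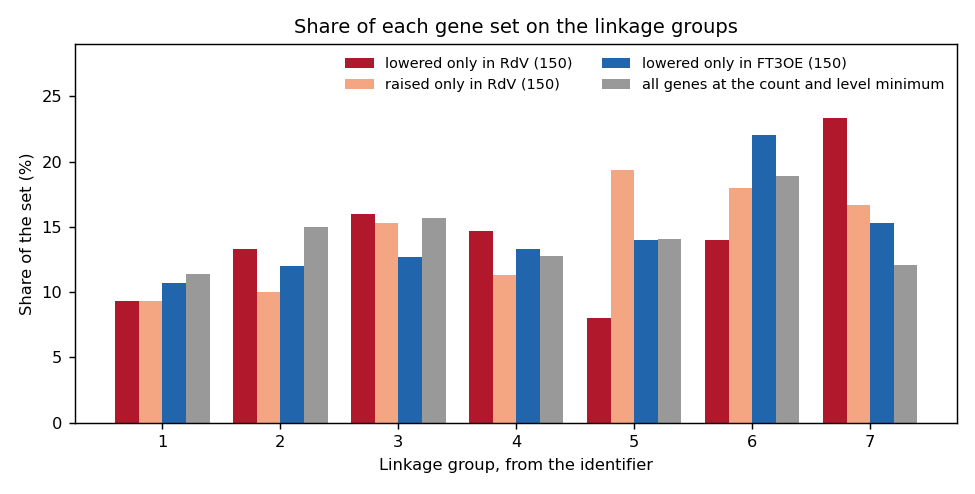
Share of each gene set (vertical axis, %) on linkage groups 1 to 7, for the members, the 150 genes raised only in RdV, the 150 lowered only in FT3OE and all genes past the count and level minimum. The members stand at 23.3% on linkage group 7 against 12.1% of all genes, and at 8% on linkage group 5 against 14.1%.

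In all, 18 members had another member within 5 identifiers, in 8 runs. The run of 4 on linkage group 7 was the longest, and the other 7 were pairs. Linkage group 6 had a pair of deep drops in FvH4_6g48330 and FvH4_6g48310. The first had 2.03, 2.11 and 0.784 CPM in RdV, 36.8, 38.9 and 38.5 CPM in FT3OE, and 37.2, 35.0 and 34.3 CPM in H4. The second had 4.95, 4.25 and 2.36 CPM in RdV, 43.4, 43.7 and 41.0 CPM in FT3OE, and 37.5, 39.7 and 41.6 CPM in H4. In both, RdV replicate 3 was the lowest library. An unequal pair was FvH4_7g33641 at 24% and FvH4_7g33620 at 57.4% of the level elsewhere. The genes raised only in RdV had 20 such genes and the genes lowered only in FT3OE had 12, and the members' count lies between these. The nearest genes on each side that were no members numbered 281. All 3 RdV libraries lay below the 6 others in 46 of them (16.4%), against 10.9% of all such genes that are no members, and above the 6 others in 30 (10.7%), against 12.9%. Their median log2 difference in RdV against H4 was −0.02, where that of all such genes was 0.07. Most neighbours of members were thus not set apart in RdV in either direction.

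Properties that the rule did not use marked a minority of the members. An expected count that is not a whole number marks a gene whose reads were divided among features by the authors' estimation. This was the case in 23 members (15.3%), against 12.7% of the genes raised only in RdV, 8% of those lowered only in FT3OE and 5.2% of all genes past the count and level minimum. Of genes whose level lay between the quartiles of the members, 3.91 and 28.6 CPM, 6.34% had such values. In the 14 members under 10%, 5 had such values, so the level of single genes among them is uncertain. Identifiers that do not end in 0 were carried by 31 members (20.7%), against 15.3% of the genes raised only in RdV, 12% of those lowered only in FT3OE, 9.59% of all genes and 11.1% of the genes at the members' level. The members' median effective length, taken from counts over TPM, was 0.83 of the median gene, against 1.00 in the genes raised only in RdV 0.956 in those lowered only in FT3OE and 0.923 in the genes at the members' level. No test was made of these differences. The part of divided reads, length or identifier class in the drops was not tested.

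Between FT3OE and H4 the members were alike because the rule asked for it, at −0.30 to 0.29 on the log2(CPM + 0.5) scale with a median of 0.01. With TMM scaling their median fitted log2 change was −0.09, where that of all tested genes was 0.01. In that fit 10 of the 150 members were called, all lower in FT3OE than in H4, against 31.7% of all genes called in either direction. This direction depended on the scaling: with library totals alone, which the rule uses, 2 members were called lower and 5 higher in FT3OE, and the median over all tested genes was 0.11. Under TMM the fitted log2 changes of the 10 ran from −0.40 in FvH4_4g27330 to −0.24 in FvH4_3g02920, and FvH4_6g40970 was among them at −0.33. The count ran from 2 without FT3OE replicate 1 to 18 without RdV replicate 2, and was 25 when FT3OE and H4 alone were fitted.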

How the data were processed

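Stranded mRNA libraries were read from both ends at 150 bp, per the labels' protocols. The authors deposited expected counts per gene, which are estimated counts with no normalization; they were rounded here for the tests (97.5% were whole within 0.01). The authors also deposited TPM per gene, which allow for effective gene length and have the same sum in every library. The submitters' processing notes name STAR, RSEM and edgeR with no version; the genome build is not given in the sources used here. The identifiers are of Hawaii-4 gene models, and no value here measures how completely RdV reads were counted on them.

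The members and comparison sets were chosen with earlier results of these data known. Members follow the rule given with the results, on CPM from column sums. All 9 libraries entered 1 fit in edgeR 4.0.16 (R 4.3.3) with filterByExpr, TMM scaling and quasi-likelihood tests, with Benjamini-Hochberg adjustment over 18587 genes. The scripts were tested on simulated data, and Python 3.11.15 was used for the rest. Genes named are the 5 widest drops, the 4 highest in CPM, the 2 on each side of the boundary, the 2 widest in RdV and the longest run; others were named after their values were seen. Alternatives were other scalings, DESeq2 1.42.0, limma 3.58.1 on TPM (log2, pseudocounts of 1 and 0.1, with and without a TPM minimum), no filter, fits of 2 genotypes, the replicate number as a block, other settings of the rule, and each library left out. No list of named pathways or cell markers could be used, since 0 of 34006 identifiers matched a name.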

Additional observations from a re-analysis of the deposited data

How the results depend on the processing

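Wherever all 150 members were tested, at least 149 were called lower in RdV than in H4 and 144 lower than in FT3OE; with a mean of at least 1 TPM required, 146 members were tested and 145 and 142 called. The median log2 change of the members against H4 was −1.28 with library totals alone, −0.99 and −1.19 with limma on log2(TPM + 1) and log2(TPM + 0.1), and −1.01 on log2(TPM + 1) of genes with a mean of at least 1 TPM; against FT3OE the limma values were −1.03, −1.22 and −1.04. Leaving out single libraries gave −1.43 to −1.33 against H4 and −1.29 to −1.26 against FT3OE. All genes called lower in RdV than in H4 numbered 4392, and 2713, 2727 and 2571 in these limma fits. Members called between FT3OE and H4 numbered 10, 25 in a fit of those 6 libraries and 2 to 18 with single libraries left out. The cause was not tested. RLE scaling gave 11 members lower and 0 higher in FT3OE, and limma on log2(TPM + 1) 3 lower and 5 higher. Requiring 5 CPM kept 99 of the 150 members, which by construction drops low genes, and 118 to 139 were kept without single libraries. Within 10 identifiers in place of 5, 29 members had another member near. Without single libraries the picks held 30 to 36 genes on linkage group 7, and 25 with the minimum of 5 CPM. The members under 10% numbered 14, and 15 to 16 without single RdV libraries. These last checks were chosen after the data had been seen. With the replicate number as a block, the members called lower were 150 against H4 and 148 against FT3OE, and 8 were called between FT3OE and H4. Deviations of same-numbered libraries from their genotype means correlated at 0.063, 0.332 and 0.299 between RdV and H4 for replicates 1, 2 and 3, at −0.251 to 0.029 between RdV and FT3OE and at −0.292 to 0.071 between FT3OE and H4. As a hint from the data, 6 of 18 comparisons had a library correlating best with its own number, 5 of them between RdV and H4. The numbers were not taken as pairs, since not every correlation exceeded 0.1 and the labels tie the numbers to nothing shared. Depth limits the members with few RdV counts: 31 had under 100 counts over RdV, the lowest 11.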
